A study of Arabidopsis thaliana with 27 samples.

Results

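The 9 nuclear genes described here encode ferredoxin-docking subunits of photosystem I, ferredoxins and ferredoxin-NADP+ reductases, and were measured in shoots of *Arabidopsis thaliana*. They were chosen by gene identifier and are 9 of the 33602 genes in the deposited table, whose values are TPM, shares of reads corrected for gene length. PSAD-1 (AT4G02770) and PSAD-2 (AT1G03130) encode the photosystem I subunit PsaD, and PSAE-1 (AT4G28750) and PSAE-2 (AT2G20260) encode PsaE. FD1 (AT1G10960) and FED A (AT1G60950, also called FD2) encode the leaf-type ferredoxins, FD3 (AT2G27510) encodes a root-type ferredoxin, and FNR1 (AT5G66190) and FNR2 (AT1G20020) encode the leaf-type ferredoxin-NADP+ reductases. All 9 passed the minimum mean of 1 TPM and were tested among 18910 genes.

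Col-0 wild-type seedlings were grown for 7 days on complete medium (+Fe+P) under continuous light and then moved to 1 of 3 media. These had no added iron and a strongly reduced but not zero phosphate supply (−Fe−P), no added iron with full phosphate (−Fe+P), or were complete again (+Fe+P), and shoots were harvested after a further 39, 52 or 76 h. Each of the 9 groups had 3 biological replicates, which makes 27 samples. A medium low in phosphate alone was not among them, so phosphate was varied only without added iron. The comparisons ask how iron deficiency changes shoot transcripts and how simultaneous phosphate deficiency alters that response.

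Photosystem I uses light to raise electrons to a strongly reducing potential and releases them on its stromal side. PsaD and PsaE form, with the iron-sulfur protein PsaC, the docking surface at which soluble ferredoxin accepts the electron. Ferredoxin holds it on a 2Fe-2S cluster, and FNR, a flavoprotein, passes electrons from ferredoxin to NADP+ to make NADPH for carbon fixation. Ferredoxin also reduces nitrite, sulfite, glutamate synthase and thioredoxin, so it is the branch point of reducing power in the chloroplast. PsaD, PsaE and FNR contain no iron of their own, whereas every ferredoxin does.

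The part of the ferredoxin coding sequences that binds the iron-sulfur cluster is shown first, because the ferredoxin copies share this site and differed in their response. Each window runs from the codon of the first to that of the fourth cysteine of the plant ferredoxin pattern, with the cysteine codons in capitals. The sequences are from RefSeq on TAIR10.1, 5′ to 3′ on the coding strand, with FD1 at chr1:3664715-3664831 (+), FED A at chr1:22444835-22444951 (+) and FD3 at chr2:11758341-11758457 (−).
FD1: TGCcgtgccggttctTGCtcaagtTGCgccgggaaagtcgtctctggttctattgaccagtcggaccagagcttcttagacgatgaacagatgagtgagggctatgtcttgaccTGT
FED A: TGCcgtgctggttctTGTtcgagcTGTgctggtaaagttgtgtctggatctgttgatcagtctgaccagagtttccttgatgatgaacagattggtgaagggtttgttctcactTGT
FD3: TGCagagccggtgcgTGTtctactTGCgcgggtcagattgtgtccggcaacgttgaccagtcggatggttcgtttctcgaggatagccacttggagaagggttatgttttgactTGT
All 3 windows were 117 bases long and held the 4 cysteine codons at the same spacing, at codons 91, 96, 99 and 129 of FD1 and of FED A and at codons 98, 103, 106 and 136 of FD3. FED A matched FD1 at 77.8% of the bases of the window, against 62.4% for FD3 with FED A and 63.2% for FD3 with FD1.

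The other pairs were also close copies, which bears on how far reads can be told apart. Over the whole coding sequence PSAD-2 was 88.0% identical to PSAD-1, PSAE-2 79.0% to PSAE-1, FED A 79.6% to FD1 and FNR2 75.2% to FNR1. Of the 6 pairs whose annotated transcripts were searched, the longest shared run was 35 bases, in the PSAD pair, and is shown because reads confined to it could belong to either gene.
PSAD-1 and PSAD-2: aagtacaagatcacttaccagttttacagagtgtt
It lies at chr4:1229407-1229441 (−) in PSAD-1 and at chr1:753688-753722 (−) in PSAD-2, inside the only exon of each gene. The longest shared run was 23 bases for FED A and FD1, 22 for the PSAE pair and 17 for the FNR pair. How the authors assigned reads that match more than 1 gene is not given in the sources used here.

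In these libraries the nutrient treatments were visible in genes that report them. At 76 h BHLH100, an iron deficiency regulator, averaged 323.8 TPM on −Fe−P, 519.4 TPM on −Fe+P and 2.13 TPM on +Fe+P, and FER1, the iron store ferritin, averaged 12.4, 5.12 and 70.3 TPM on the same media. IPS1, a phosphate starvation RNA, averaged 265.6 TPM on −Fe−P, 0.244 TPM on −Fe+P and 0.0929 TPM on +Fe+P. The phosphate sensor gene SPX1 averaged 642.5, 33.8 and 18.2 TPM on the same media. The summed level of 4 shoot markers ranged from 35080 to 44200 TPM on −Fe−P, from 33640 to 39780 TPM on −Fe+P and from 38090 to 51580 TPM on +Fe+P. At 76 h, 2 of the 4 were lower on −Fe−P than on +Fe+P and 4 on −Fe+P (limma, adjusted p under 0.05). The shares of all genes lower there were 21.9% and 9.43%. Of 8 root markers, PYK10 averaged 491.8 TPM over the samples and the 7 others summed to 4.70 to 48.6 TPM on −Fe−P, 7.79 to 21.8 TPM on −Fe+P and 2.41 to 18.2 TPM on +Fe+P. IRT1 and FRO2, which contribute to that sum, are themselves iron-deficiency genes of roots. The part of these markers in the results below was not tested. Replicate 1 of −Fe−P at 39 h stood apart, with 671 genes at least 2-fold away from the other replicates of its group, against 39 to 229 genes in the other samples. In bulk shoots, fewer cells of a type and less RNA per cell cannot be told apart.

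Most of the 9 genes were lower on iron-free than on complete medium at 76 h, with full or low phosphate, but by very different amounts. FED A and PSAD-2 were lower on both iron-free media at every time, each by more than 2-fold, while FD1 and FNR1 did not pass the test against +Fe+P at any time. A gene was called changed at an adjusted p under 0.05 in limma, Benjamini-Hochberg adjusted over all 18910 genes. On −Fe−P, 2 of the 9 genes were lower than on +Fe+P at 39 h, 5 at 52 h and 6 at 76 h, where 5.18%, 11.6% and 21.9% of all genes tested were called lower. On −Fe+P, 3 of the 9 genes were lower at 39 h, 6 at 52 h and 6 at 76 h, against 2.45%, 3.57% and 9.43% of all genes tested. With a minimum change of 2-fold, 2 of the 9 were lower on −Fe−P at each time, against 0.55%, 0.793% and 2.6% of all genes at 39, 52 and 76 h. Past 2-fold on −Fe+P were 2, 2 and 4 genes, against 0.439%, 0.687% and 1.2% of all genes. FNR2 was the 1 member called higher, on −Fe−P at 52 h and at 76 h, when 28.8% and 33.7% of all genes were called higher. On −Fe−P at 39 h, limma called 0 members higher (0 at an unadjusted p under 0.05), against 10.8% of all genes. At each time it called 0 higher on −Fe+P (in order of time 0, 2 and 1 at an unadjusted p under 0.05), against 3.43%, 28.5% and 29.5%. Both iron-free media are set against the same +Fe+P samples, so their results are not independent of each other. The median log2 fold change of all genes tested against +Fe+P was 0.04, 0.11 and 0.10 on −Fe−P and 0.05, 0.16 and 0.11 on −Fe+P in order of time, and the members' values are to be read relative to these.

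**Figure D1:**
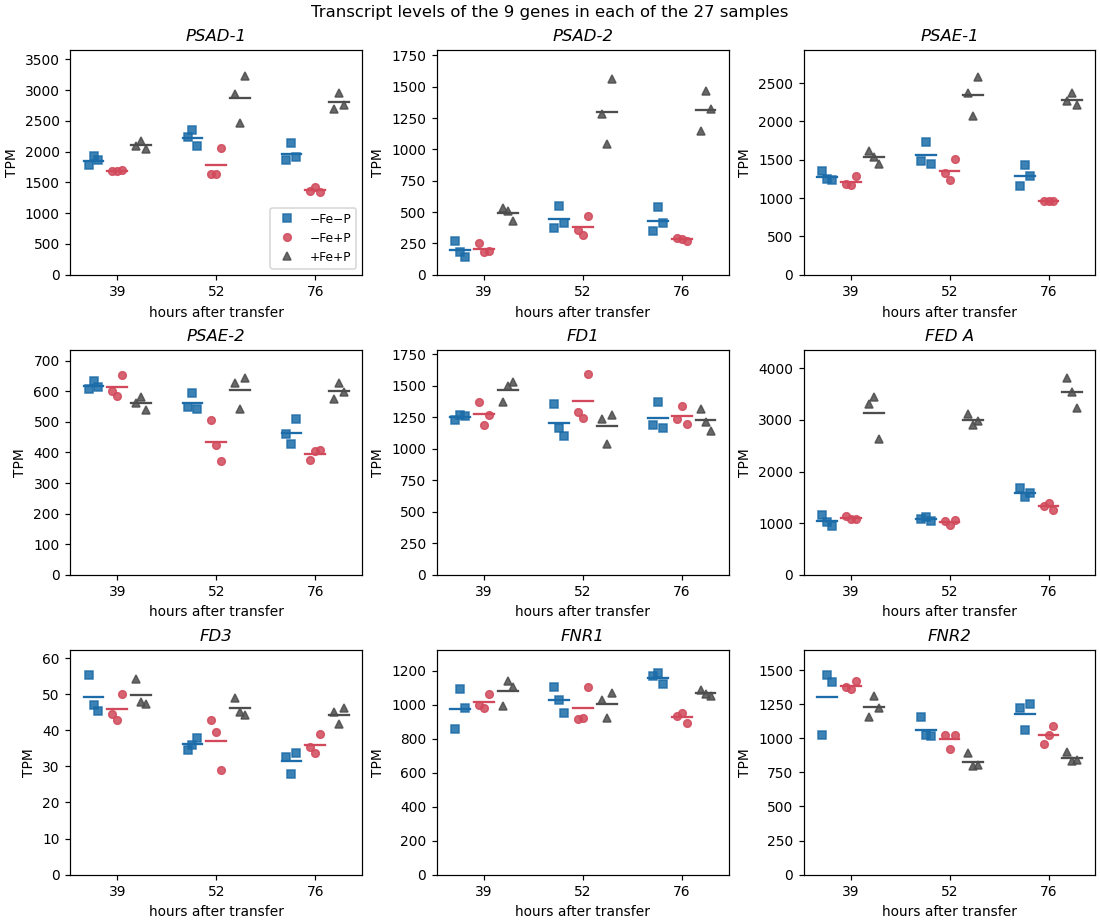
Transcript level (TPM, linear axis from 0) of each of the 9 genes against time since transfer (39, 52 and 76 h), with 1 point per sample (3 per group, squares −Fe−P, circles −Fe+P, triangles +Fe+P) and a bar at each group mean. FED A and PSAD-2 stand clear of both iron-free media on +Fe+P at every time, whereas the 3 media overlap in FD1 at 52 and 76 h.

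Among the ferredoxins, FED A, the most abundant leaf ferredoxin on complete medium, had the sharpest separation. At 39 h it had 1148, 1026 and 945.4 TPM on −Fe−P, 1145, 1078 and 1079 TPM on −Fe+P and 3307, 3453 and 2625 TPM on +Fe+P. At 52 h it had 1082, 1110 and 1039 TPM on −Fe−P, 1038, 953.8 and 1056 TPM on −Fe+P and 3116, 2901 and 2974 TPM on +Fe+P. At 76 h it had 1675, 1497 and 1586 TPM on −Fe−P, 1333, 1395 and 1250 TPM on −Fe+P and 3819, 3542 and 3241 TPM on +Fe+P. All 18 iron-deficient samples lay below all 9 samples on +Fe+P, the highest deficient sample having 1675 TPM and the lowest +Fe+P sample 2625 TPM. FED A was 2.996-fold lower on −Fe−P than on +Fe+P at 39 h, 2.78-fold lower at 52 h and 2.23-fold lower at 76 h (log2 fold changes −1.58, −1.48 and −1.15, SE 0.10, adjusted p = 2.65e-11, 6.05e-11 and 1.45e-09). On −Fe+P it was 2.82-fold, 2.95-fold and 2.66-fold lower at the same times (−1.50, −1.56 and −1.41, SE 0.10, adjusted p = 1.83e-10, 4.1e-11 and 2.38e-10).

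FD1, whose product is the less abundant leaf ferredoxin in well-fed plants, did not pass the test between any media. It had 1230, 1265 and 1259 TPM on −Fe−P, 1368, 1189 and 1270 TPM on −Fe+P and 1368, 1501 and 1533 TPM on +Fe+P at 39 h. At 52 h it had 1353, 1165 and 1105 TPM on −Fe−P, 1293, 1243 and 1595 TPM on −Fe+P and 1240, 1036 and 1264 TPM on +Fe+P. At 76 h it had 1190, 1368 and 1163 TPM on −Fe−P, 1237, 1341 and 1196 TPM on −Fe+P and 1318, 1214 and 1144 TPM on +Fe+P. The 3 media overlapped at 52 and 76 h. At 39 h every deficient sample lay below every +Fe+P sample, though the highest on −Fe+P and the lowest on +Fe+P both round to 1368 TPM. Its log2 fold changes against +Fe+P were −0.23, 0.03 and 0.02 on −Fe−P and −0.20, 0.22 and 0.04 on −Fe+P (SE 0.10), with adjusted p from 0.11 to 0.908. Ranked by group mean, every one of its 9 groups overlapped the next, and the highest mean was 1.24 times the lowest, against 3.48 times for FED A.

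FD3, whose product resembles the ferredoxins of non-photosynthetic plastids, was measured at far lower level, 41.8 TPM on average over the 27 samples. Its 39 h values were 55.2, 47.1 and 45.4 TPM on −Fe−P, 44.6, 42.9 and 49.97 TPM on −Fe+P and 54.1, 47.9 and 47.4 TPM on +Fe+P. The media overlapped at that time. It had 34.4, 35.9 and 37.9 TPM on −Fe−P, 42.8, 39.5 and 28.98 TPM on −Fe+P and 49.0, 45.2 and 44.2 TPM on +Fe+P at 52 h. At 76 h it had 32.6, 27.8 and 33.8 TPM on −Fe−P, 35.2, 33.7 and 38.9 TPM on −Fe+P and 45.1, 41.7 and 46.1 TPM on +Fe+P. At both times every sample on +Fe+P was above every sample on either iron-free medium. FD3 was lower on −Fe−P by 0.35 and 0.49 on the log2 scale at 52 and 76 h (SE 0.11, adjusted p = 0.0154 and 0.000709). On −Fe+P it was lower by 0.33 and 0.30 (adjusted p = 0.0281 and 0.0378). These calls were lost without any 1 of 3 of the 6 samples at 52 h (replicates 1 and 2 of +Fe+P and replicate 3 of −Fe+P, adjusted p up to 0.232) and of 4 of the 6 at 76 h (replicates 1 and 3 of +Fe+P and 1 and 2 of −Fe+P, adjusted p up to 0.13). The −Fe−P call at 52 h was lost without replicate 1 of +Fe+P (adjusted p = 0.0606). At 39 h the values were −0.02 on −Fe−P and −0.12 on −Fe+P and did not pass the test.

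The make-up of the ferredoxin transcript pool differed accordingly. At 39 h FED A made up 44.4% ± 2.61 on −Fe−P, 45.5% ± 1.04 on −Fe+P and 67.1% ± 4.11 on +Fe+P of the summed TPM of FD1, FED A and FD3 (SD, n = 3 each). At 76 h its share was 55.5% ± 3.29 on −Fe−P, 50.6% ± 0.475 on −Fe+P and 73.5% ± 0.365 on +Fe+P (SD). The sum of the 3 genes at 76 h was 2857 ± 65.1 TPM on −Fe−P, 2620 ± 143 TPM on −Fe+P and 4804 ± 375 TPM on +Fe+P (SD). FED A was thus the majority transcript on complete medium, while the 2 leaf-type genes were closer to parity on both iron-free media. At 39 h FD1 had the larger mean share there, 53.5% on −Fe−P and 52.6% on −Fe+P. The same held at 52 h, with 52.0% for FD1 against 46.5% for FED A on −Fe−P and 56.5% against 41.9% on −Fe+P.

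In the docking subunits, PSAD-2 had the widest range of the 9 genes, its highest group mean being 6.71 times its lowest. At 39 h it had 266.6, 177.8 and 142.8 TPM on −Fe−P, 255.3, 183 and 186 TPM on −Fe+P and 531.5, 506.1 and 431.9 TPM on +Fe+P. At 52 h it had 374.8, 548.7 and 410.8 TPM on −Fe−P, 357.3, 316 and 471.8 TPM on −Fe+P and 1281, 1043 and 1560 TPM on +Fe+P. At 76 h it had 348.8, 537.5 and 409.9 TPM on −Fe−P, 291.9, 282.2 and 271.8 TPM on −Fe+P and 1147, 1469 and 1324 TPM on +Fe+P. Every sample on +Fe+P lay above every iron-deficient sample of its own time, although the 39 h samples on +Fe+P lay in the range of deficient samples from later times. PSAD-2 was 2.58-fold, 2.91-fold and 3.07-fold lower on −Fe−P than on +Fe+P at the 3 successive times (log2 −1.36, −1.54 and −1.62, SE 0.21, adjusted p = 6.42e-05, 5.07e-06 and 1.05e-06). On −Fe+P it was 2.37-fold, 3.39-fold and 4.63-fold lower (log2 −1.24, −1.76 and −2.21, adjusted p = 0.000435, 1.98e-06 and 4.17e-08).

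PSAD-1, the more abundant copy, differed by smaller folds. At 39 h it had 1780, 1924 and 1864 TPM on −Fe−P, 1692, 1681 and 1697 TPM on −Fe+P and 2089, 2181 and 2051 TPM on +Fe+P. At 52 h it had 2237, 2352 and 2087 TPM on −Fe−P, 1637, 1642 and 2058 TPM on −Fe+P and 2931, 2468 and 3228 TPM on +Fe+P. At 76 h it had 1859, 2134 and 1909 TPM on −Fe−P, 1360, 1429 and 1339 TPM on −Fe+P and 2702, 2956 and 2766 TPM on +Fe+P. The 3 media did not overlap at 76 h, with −Fe−P between the others. Against +Fe+P its log2 fold changes on −Fe−P were −0.18, −0.36 and −0.51 in order of time (SE 0.10, adjusted p = 0.206, 0.00446 and 9.97e-05). On −Fe+P they were −0.32, −0.69 and −1.03 (adjusted p = 0.0522, 1.53e-05 and 3.5e-08), so the 39 h value did not pass the test, though no sample overlapped. The summed PSAD level at 76 h was 2399 ± 242 TPM on −Fe−P, 1658 ± 50.6 TPM on −Fe+P and 4121 ± 289 TPM on +Fe+P, of which PSAD-2 supplied 17.9% ± 2.17 on −Fe−P, 17.0% ± 0.602 on −Fe+P and 31.8% ± 1.77 on +Fe+P (SD, n = 3 each).

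PSAE-1, the more abundant PsaE gene, had a pattern close to that of PSAD-1. At 39 h it had 1354, 1249 and 1230 TPM on −Fe−P, 1183, 1176 and 1283 TPM on −Fe+P and 1609, 1533 and 1447 TPM on +Fe+P. At 52 h it had 1487, 1736 and 1449 TPM on −Fe−P, 1321, 1230 and 1506 TPM on −Fe+P and 2365, 2072 and 2585 TPM on +Fe+P. At 76 h it had 1155, 1427 and 1294 TPM on −Fe−P, 961, 967.1 and 958.5 TPM on −Fe+P and 2263, 2372 and 2209 TPM on +Fe+P. At 76 h every sample on −Fe+P was lowest, every sample on +Fe+P highest and −Fe−P lay between. Its log2 fold changes against +Fe+P were −0.26, −0.59 and −0.82 on −Fe−P (SE 0.10, adjusted p = 0.0688, 4.77e-05 and 2.46e-07) and −0.33, −0.79 and −1.24 on −Fe+P (adjusted p = 0.0416, 2.73e-06 and 2.14e-09). The 39 h call on −Fe+P was lost without any 1 of the 6 samples compared, with adjusted p from 0.0613 to 0.175.

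PSAE-2, the less abundant PsaE gene, passed the test against +Fe+P at the later times but not at 39 h. It had 606.8, 634.8 and 615.6 TPM on −Fe−P, 600.3, 583.6 and 654.9 TPM on −Fe+P and 561.7, 581.4 and 538.8 TPM on +Fe+P at 39 h. The differences of 0.14 and 0.13 on the log2 scale did not pass the test (adjusted p = 0.319 and 0.475). Its iron-deficient samples nevertheless all lay above its +Fe+P samples at that time. At 52 h it had 549.6, 594.7 and 541.3 TPM on −Fe−P, 505.5, 424.2 and 371.2 TPM on −Fe+P and 627, 542.7 and 642.4 TPM on +Fe+P, so that only −Fe+P lay below all +Fe+P samples. At 76 h it had 459.2, 426.5 and 509.5 TPM on −Fe−P, 374.9, 404.4 and 408.3 TPM on −Fe+P and 574.9, 628.6 and 597.8 TPM on +Fe+P. At that time every sample on +Fe+P was above both iron-free media. PSAE-2 was lower on −Fe−P by 0.37 at 76 h (SE 0.09, adjusted p = 0.00177), with −0.10 at 52 h not passing (adjusted p = 0.405), and lower on −Fe+P by 0.49 and 0.60 at 52 and 76 h (adjusted p = 0.000484 and 2.42e-05).

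Neither reductase gene was called lower on an iron-free medium than on +Fe+P. At 39 h FNR1 had 855, 1093 and 980.2 TPM on −Fe−P, 999.3, 980.3 and 1064 TPM on −Fe+P and 995.5, 1143 and 1107 TPM on +Fe+P. At 52 h it had 1103, 1028 and 953.9 TPM on −Fe−P, 914, 924.7 and 1103 TPM on −Fe+P and 1030, 923.6 and 1069 TPM on +Fe+P, and the media overlapped at both times. It had 1168, 1187 and 1121 TPM on −Fe−P, 935.8, 949.2 and 892.6 TPM on −Fe+P and 1090, 1064 and 1049 TPM on +Fe+P at 76 h, and its 27 values ran from 855 to 1187 TPM. Against +Fe+P its log2 fold changes were −0.15, 0.03 and 0.12 on −Fe−P and −0.09, −0.04 and −0.21 on −Fe+P (SE 0.09), with adjusted p from 0.0763 to 0.823. At 76 h the media nevertheless did not overlap, and with median-of-ratios scaling FNR1 was called lower on −Fe+P, by 0.34 (adjusted p = 0.00296).

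FNR2, the other leaf-type reductase gene, was the member that was higher. The 39 h samples had 1026, 1466 and 1414 TPM on −Fe−P, 1374, 1359 and 1422 TPM on −Fe+P and 1160, 1311 and 1223 TPM on +Fe+P, and the −Fe−P samples spanned the others. At 52 h it had 1153, 1021 and 1019 TPM on −Fe−P, 1026, 925 and 1028 TPM on −Fe+P and 892.5, 794.4 and 802.9 TPM on +Fe+P. At 76 h it had 1220, 1062 and 1254 TPM on −Fe−P, 958.8, 1027 and 1094 TPM on −Fe+P and 897.7, 830.3 and 842.6 TPM on +Fe+P. All iron-deficient samples were above all +Fe+P samples at 52 h and at 76 h. The log2 fold changes at 39 h, 0.06 on −Fe−P and 0.17 on −Fe+P, did not pass the test (adjusted p = 0.732 and 0.384). On −Fe−P it was higher by 0.36 at 52 h and 0.46 at 76 h (SE 0.11, adjusted p = 0.00935 and 0.000874), where the median of all genes was higher by 0.11 and 0.10. On −Fe+P it was 0.26 higher at both times and did not pass the test (adjusted p = 0.0637 and 0.0557), although it did with the replicate number as a block at 52 h (0.0479) and 76 h (0.0404), without replicate 1 of +Fe+P at 52 h (0.048) and without replicate 1 of −Fe+P at 76 h (0.0492). With median-of-ratios scaling, which brings the median of all genes close to 0, FNR2 was still called higher on −Fe−P, by 0.23 and 0.34 (adjusted p = 0.0315 and 0.00147). On −Fe+P the same scaling lowered its values to 0.08 at 52 h and 0.13 at 76 h. Neither passed the test in limma (adjusted p = 0.534 and 0.233).

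**Figure D2:**
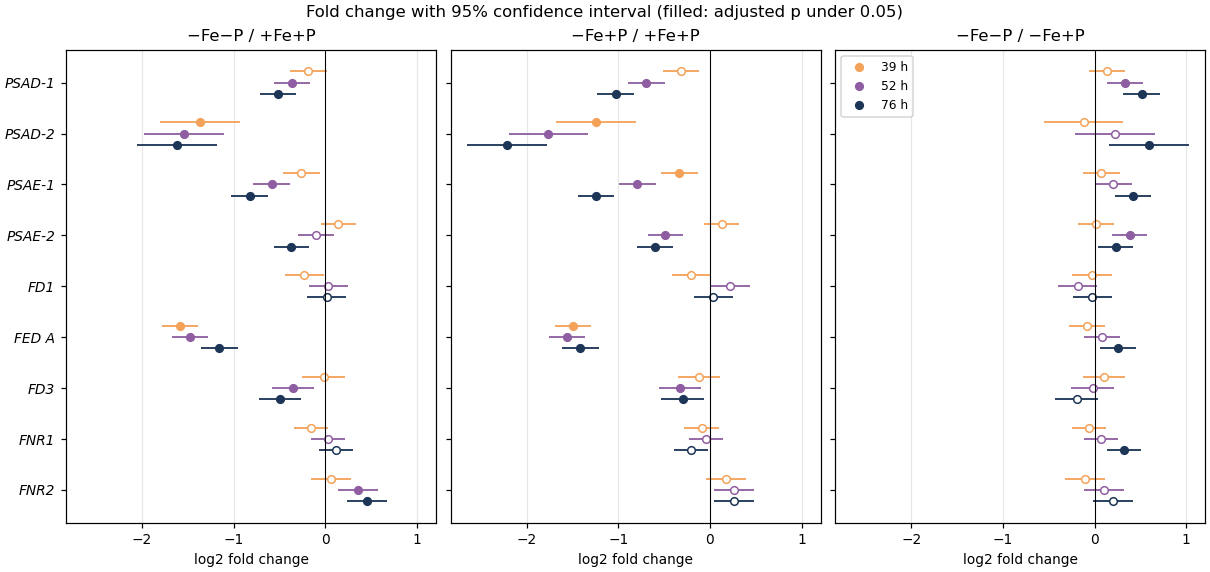
Log2 fold change in TPM with its 95% confidence interval for each gene at 39 h (orange), 52 h (purple) and 76 h (dark blue), for −Fe−P over +Fe+P (left), −Fe+P over +Fe+P (middle) and −Fe−P over −Fe+P (right), with filled points at an adjusted p under 0.05. PSAD-2 and FED A lie farthest to the left in the first 2 panels, at −2.21 and −1.41 on −Fe+P at 76 h, and in the right panel the 6 filled points at 76 h all lie above 0.

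Where phosphate was low as well as iron omitted, no member passed the test at 39 h, and by 76 h all 4 photosystem I genes, FED A and FNR1 were higher than on −Fe+P. Comparing −Fe−P directly with −Fe+P, limma called 0 members lower and 0 higher at 39 h, with 0 at an unadjusted p under 0.05, while 2.07% of all genes were called lower and 2.87% higher. At 52 h, 2 members were higher, against 9.77% of all genes, and at 76 h, 6 members, against 22.5%. The 52 h genes were PSAD-1, by 0.33 (SE 0.10, adjusted p = 0.0126), and PSAE-2, by 0.38 (SE 0.09, adjusted p = 0.00319). Neither passed when the fit used the compared groups alone (adjusted p = 0.143 and 0.0849), and PSAD-1 lost its call without replicate 1 or 2 of −Fe+P or replicate 2 of −Fe−P (adjusted p up to 0.066). At 76 h PSAD-1 was higher by 0.51, PSAE-1 by 0.42 and FNR1 by 0.32 (adjusted p = 0.000108, 0.000893 and 0.00482). PSAD-2 (0.59, SE 0.21, adjusted p = 0.0218), FED A (0.26, adjusted p = 0.0275) and PSAE-2 (0.23, adjusted p = 0.0435) were also higher. Of the 6 samples left out in turn, the PSAD-2 call was lost without 2 (replicate 3 of −Fe+P and 2 of −Fe−P, adjusted p up to 0.131) and the FED A call without 4 (replicates 1 and 3 of each medium, up to 0.107). The PSAE-2 call was lost without 5, all but replicate 2 of −Fe−P (up to 0.199). PSAE-1 was also called at 52 h without replicate 3 of −Fe+P (adjusted p = 0.0481). FD1 (−0.02), FD3 (−0.20) and FNR2 (0.20) did not pass the test at 76 h. Leaving out replicate 3 of −Fe+P at 76 h lowered the number of genes called to 3.

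The change over time was compared within each medium. The 39 and 76 h harvests are not whole days apart, so they may differ in time of day as well as in seedling age. Effects of these cannot be told apart from those of time since transfer. On −Fe−P, 3 of the 9 were higher at 76 h than at 39 h and 2 lower, against 27.8% and 30.7% of all genes, so the members' shares there were near the background. On −Fe+P, 1 was higher and 5 lower, against 17.4% and 16.1%, and on +Fe+P, 3 were higher and 1 lower, against 6.1% and 13.4%. By estimate PSAD-2 was higher at 76 h on all 3 media (0.45 on −Fe+P, adjusted p = 0.1) and FNR2 lower on all 3 (−0.13 on −Fe−P, adjusted p = 0.303). On +Fe+P the rises were those of PSAD-1 (log2 0.41, adjusted p = 0.00476), PSAD-2 (1.42, adjusted p = 8.55e-05) and PSAE-1 (0.58, adjusted p = 0.000291), and FNR2 fell by 0.52 (adjusted p = 0.00168). On −Fe−P, PSAD-2 rose by 1.17 (adjusted p = 5.99e-05), FED A by 0.61 (adjusted p = 1.11e-05) and FNR1 by 0.25 (adjusted p = 0.02), while PSAE-2 fell by 0.42 (adjusted p = 0.000591) and FD3 fell by 0.64 (adjusted p = 4.25e-05). On −Fe+P, FED A rose by 0.27 (adjusted p = 0.0337), and PSAD-1, PSAE-1, PSAE-2, FD3 and FNR2 fell, by 0.30, 0.33, 0.63, 0.34 and 0.43 (adjusted p = 0.0198, 0.00972, 1.93e-05, 0.0203 and 0.00285). Without replicate 1 of −Fe−P at 39 h, the library that stood apart, FNR1 lost its call on −Fe−P (adjusted p = 0.137, and 0.0542 without replicate 2 at 76 h) and FNR2 was called lower at 76 h, by 0.29 (adjusted p = 0.00835). On −Fe+P the FED A call was lost without replicate 2 or 3 at 39 h or replicate 1 or 2 at 76 h (adjusted p up to 0.122), the PSAD-1 call without replicate 3 at 39 h or 1 or 3 at 76 h (up to 0.0626) and the FD3 call without replicate 3 at 39 h or 1 or 2 at 76 h (up to 0.0992). There 3 genes were called without replicate 3 at 39 h or without replicate 1 at 76 h.

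The change of the response between 39 and 76 h was tested as an interaction. It uses the same times, so time of day and time since transfer cannot be told apart here either. On −Fe−P, 3 members had a lower log2 fold change at 76 h than at 39 h and 1 a higher one, against 13.6% and 15.1% of all genes. On −Fe+P, 4 members had a lower one, against 1.4%. PSAE-1 and PSAE-2 were among them on both media. The −Fe+P interaction was −0.91 for PSAE-1 (adjusted p = 0.000356), −0.71 for PSAD-1 (adjusted p = 0.00234) and −0.97 for PSAD-2 (adjusted p = 0.0478). For PSAE-2 it was −0.73 (adjusted p = 0.00159), between a log2 fold change of 0.13 at 39 h and −0.60 at 76 h. The −Fe−P values were −0.57 for PSAE-1, −0.51 for PSAE-2 and −0.48 for FD3 (adjusted p = 0.00341, 0.00525 and 0.0269). FED A had the opposite sign there, 0.43 (adjusted p = 0.0199), its fold change being smaller at 76 h than at 39 h, and median-of-ratios scaling ended that call (adjusted p = 0.0659). The FNR2 interaction on −Fe−P, 0.39, did not pass the test (adjusted p = 0.0522) but did under 6 alternatives with all samples kept (adjusted p from 0.0217 to 0.049) and without any 1 of 3 samples, replicates 2 and 3 of −Fe−P at 39 h and 2 at 76 h (from 0.0188 to 0.0295). Of the 12 samples left out in turn, the PSAD-2 call on −Fe+P was lost without 11, all but replicate 1 of +Fe+P at 76 h (adjusted p up to 0.119). The FD3 call on −Fe−P was lost without 6, namely replicates 2 and 3 of +Fe+P and 1 of −Fe−P at 39 h and replicates 1 and 3 of +Fe+P and 2 of −Fe−P at 76 h (up to 0.077). The FED A call there was lost without 5, namely replicates 1 and 2 of +Fe+P and 3 of −Fe−P at 39 h and replicates 3 of +Fe+P and 1 of −Fe−P at 76 h (up to 0.0694). In that comparison 2 members were called without replicate 2 of +Fe+P at 39 h or replicate 3 of +Fe+P at 76 h.

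The ratio of the copies within a sample does not depend on the scaling between samples, and it differed between each iron-free medium and +Fe+P in all 5 pairs compared. FED A is in both FED A/FD1 and FD3/FED A, so these pairs are not independent. FD3 itself was not called higher on either iron-free medium. Differences in mean log2 ratio were tested over the 9 samples of each medium by an exact two-sided permutation test with labels exchanged within each time, for 15 comparisons, where the smallest possible p is 0.00025. FED A relative to FD1 was lower by 1.35 on −Fe−P and by 1.51 on −Fe+P than on +Fe+P, and PSAD-2 relative to PSAD-1 was lower by 1.15 and 1.06. FNR2 relative to FNR1 was higher by 0.30 on −Fe−P and 0.34 on −Fe+P, and FD3 relative to FED A was higher by 1.12 and 1.24. Each of these 8 differences reached that smallest p in the exact test (adjusted p = 0.000417). PSAE-2 relative to PSAE-1 was higher by 0.45 on −Fe−P (adjusted p = 0.000417) and 0.47 on −Fe+P (adjusted p = 0.0015) in the exact test. In single samples at 76 h, FED A/FD1 was 1.41, 1.09 and 1.36 on −Fe−P, 1.08, 1.04 and 1.04 on −Fe+P and 2.90, 2.92 and 2.83 on +Fe+P. PSAD-2/PSAD-1 was 0.188, 0.252 and 0.215 on −Fe−P, 0.215, 0.198 and 0.203 on −Fe+P and 0.424, 0.497 and 0.479 on +Fe+P. Neither ratio overlapped between +Fe+P and an iron-free medium at that time. Between −Fe−P and −Fe+P the 5 ratios differed by −0.12 to 0.16 as means over the 3 times and none passed the exact test, with adjusted p from 0.0624 to 0.746. FED A/FD1 differed by −0.06, 0.27 and 0.28 at 39, 52 and 76 h, and at 76 h all −Fe−P samples lay above all −Fe+P samples. FD3/FED A differed by 0.19, −0.11 and −0.45, and at 76 h all −Fe−P samples lay below all −Fe+P samples. The single times were not tested. The FED A/FD1 difference of 0.16 passed without any 1 of 4 samples (0.17 to 0.20, adjusted p from 0.0245 to 0.044).

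**Figure D3:**
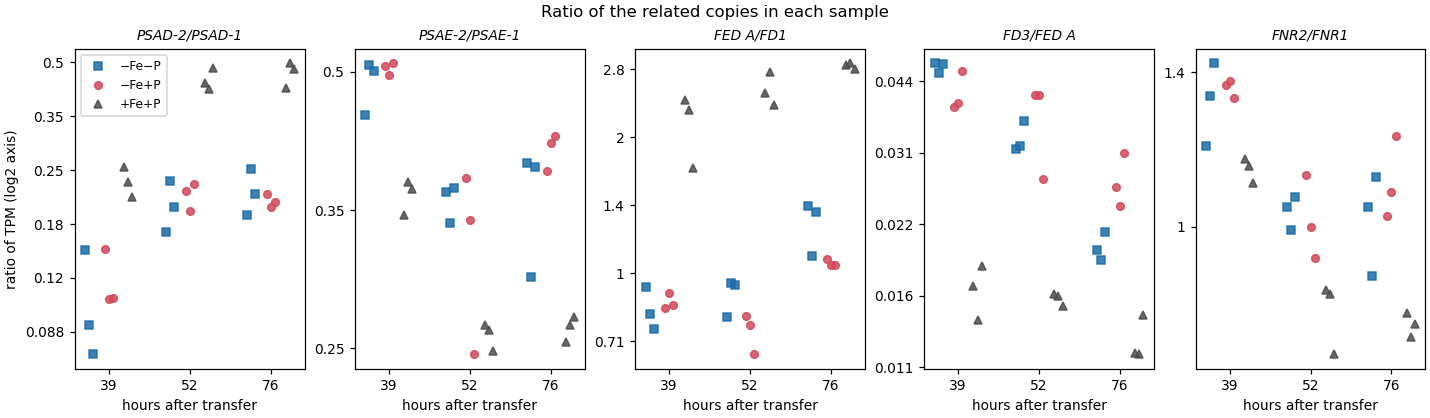
Ratio of TPM between related genes in each sample (log2 axis) at 39, 52 and 76 h for 5 pairs, with squares for −Fe−P, circles for −Fe+P and triangles for +Fe+P. The FED A/FD1 ratio on +Fe+P at 76 h lies between 2.83 and 2.92, above all iron-deficient samples, and the PSAE-2/PSAE-1 ratio of 1 −Fe+P sample at 52 h (0.246) falls below the +Fe+P samples.

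The genes around this segment were described in the same comparisons. Of 8 other nuclear photosystem I subunit genes, 4, 8 and 8 were lower on −Fe−P in order of time, and 6, 8 and 8 on −Fe+P. Their median log2 fold changes were −0.32, −0.59 and −0.84 on −Fe−P and −0.41, −0.94 and −1.30 on −Fe+P, against all-gene medians between 0.04 and 0.16. PSAN and PSAF, subunits on the plastocyanin side, had the largest changes of the list at 52 h, −1.46 and −1.50 on −Fe−P and −2.25 and −2.04 on −Fe+P. Between −Fe−P and −Fe+P, 7 of the 8 were higher on −Fe−P at 52 h and at 76 h. At 52 and 76 h all 4 PSAD and PSAE genes had the same negative sign as these 8, although PSAE-2 on −Fe−P at 52 h did not pass the test. Of the 2 plastocyanin genes, PETE1 was lower by 0.36 on −Fe−P and 0.67 on −Fe+P at 76 h, and PETE2 by 0.25 and 0.40.

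Genes that use or anchor the electron carriers were mixed. All-gene shares called against +Fe+P were 5.18%, 11.6% and 21.9% lower and 10.8%, 28.8% and 33.7% higher on −Fe−P in order of time. On −Fe+P they were 2.45%, 3.57% and 9.43% lower and 3.43%, 28.5% and 29.5% higher. The counts of called genes in the lists below are to be read beside these shares. Of 14 genes of ferredoxin-dependent enzymes and their subunits, 4, 4 and 3 were lower on −Fe−P in order of time and 4, 3 and 4 on −Fe+P, with medians between −0.16 and 0.06. On −Fe−P 3 were higher at 76 h, and on −Fe+P 2 at 52 h and 3 at 76 h. At 76 h on −Fe−P the list thus had 3 genes lower and 3 higher of 14, where 21.9% and 33.7% of all genes were called in these directions. The sulfite reductase gene SIR was lower by 1.74, 1.25 and 0.82 on −Fe−P and by 1.52, 1.21 and 1.17 on −Fe+P, and the nitrite reductase gene NIR1 was lower by 1.58, 1.27 and 1.03 on −Fe−P and by 1.02, 0.94 and 1.18 on −Fe+P. Both enzymes carry siroheme and an iron-sulfur cluster. FTRA2, a subunit of ferredoxin-thioredoxin reductase, was lower by 0.95, 0.73 and 0.40 on −Fe−P and by 1.05, 1.27 and 0.85 on −Fe+P. Of 7 genes for FNR anchors and cyclic electron flow, 1 was lower on −Fe−P at each time and 3 and 4 were higher at 52 and 76 h, while 1, 1 and 4 were lower on −Fe+P. In this list 1 gene, LIR1, was also higher on −Fe−P at 39 h and on −Fe+P at 52 and 76 h. TIC62, which tethers FNR to the thylakoid in a pool with TROL, was lower by 0.69, 0.64 and 0.73 on −Fe−P. LIR1 (AT3G26740), a small protein that helps attach FNR to these anchors, was higher by 0.73, 1.48 and 1.59 on −Fe−P, and by 0.96 on −Fe+P at both 52 and 76 h. Of 7 other ferredoxin and root-type FNR genes 6 were tested, FD4 being listed at 0 in every sample, and 1, 2 and 5 were lower on −Fe−P against 0, 2 and 2 on −Fe+P. The count of 0 was 0 also at an unadjusted p under 0.05 in limma. RFNR1, a root-type reductase, was lower by 0.31, 0.64 and 0.93 on −Fe−P.

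**Figure D4:**
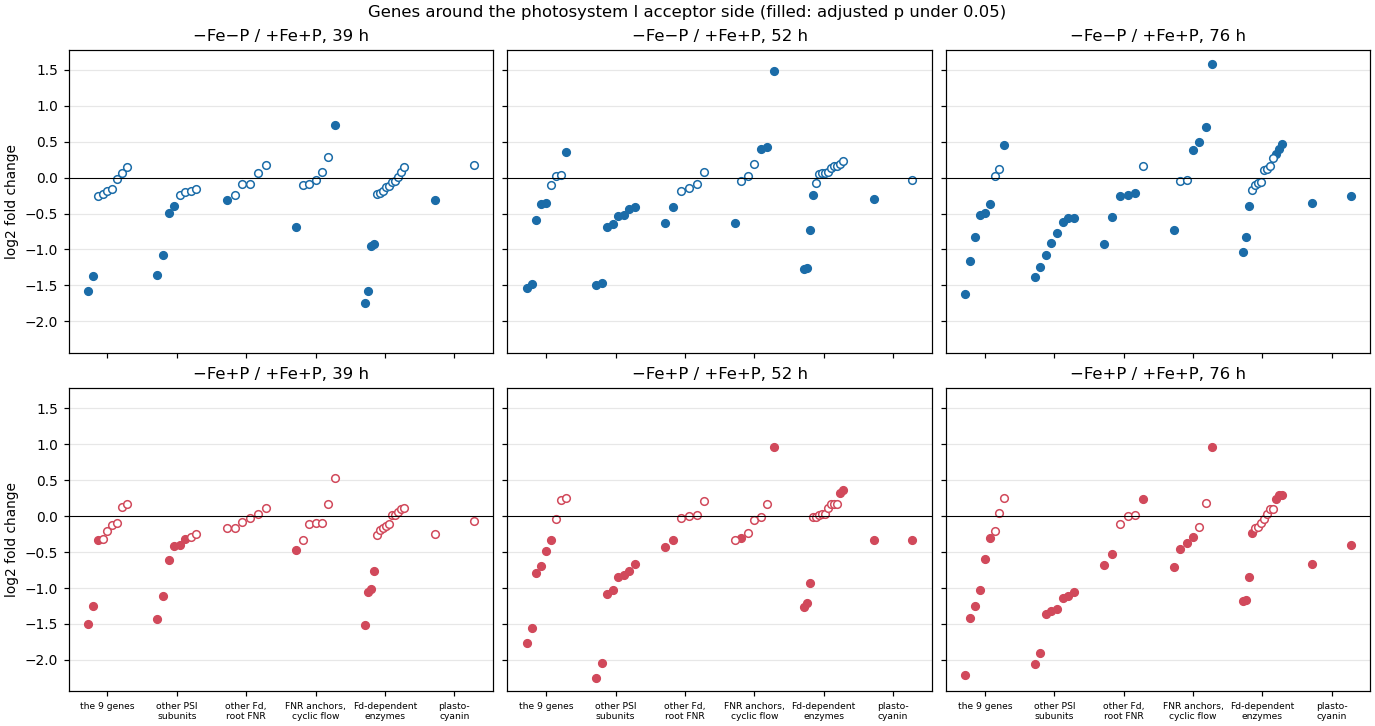
Log2 fold change in TPM of the 9 genes and of 5 lists of partner genes, 1 point per gene, on −Fe−P over +Fe+P (upper row) and −Fe+P over +Fe+P (lower row), with a column of panels per time (39, 52, 76 h), filled at an adjusted p under 0.05. The 8 other photosystem I subunits lie below 0 in every panel, with medians of −0.84 on −Fe−P and −1.30 on −Fe+P at 76 h. The ferredoxin-dependent enzymes centre near 0, with SIR, NIR1 and FTRA2 toward the lower end.

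Each gene was also set beside the genes whose pattern across the 27 samples was most like its own, among the 14616 genes that averaged 5 TPM or more. Pearson r of log2 TPM is given as a description, since the samples share media and times. FED A was nearest to NEET (AT5G51720, an iron-sulfur protein, r = 0.985), AT2G36885 (r = 0.984) and AT5G08050 (r = 0.982). PSAD-1 was nearest to PSAL (r = 0.973), PSAH2 (r = 0.972) and PSAE-1 (r = 0.968), and PSAE-1 to PSAH2 (r = 0.98), PSAD-1 and PSAL (r = 0.964). PSAD-2 was nearest not to PSAD-1 but to AT5G57345 (r = 0.978), AT1G13650 (r = 0.966) and AT1G74470 (r = 0.963). The patterns of FD1, PSAE-2 and FNR1 had no such close counterpart, their best values being 0.824 with AT1G74070, 0.878 with AT4G01150 and 0.902 with TAPX, the thylakoid ascorbate peroxidase. FD3 was nearest to AT5G47570 (r = 0.917), and FNR2 to PRR3, a circadian clock gene (r = 0.963), PnsL3, a subunit of the chloroplast NDH complex (r = 0.956), and HCAR, a chlorophyll cycle enzyme (r = 0.955). PSAD-2 and FNR2 ran in opposite directions, with r = −0.799.

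The 250 bases before each annotated transcript start (TAIR10.1) were searched on both strands for letters associated with light and phosphate responses. The G-box CACGTG was present in 1 of the 9 windows, that of PSAE-2, against 6.49% of 27443 protein-coding genes. The I-box GATAAG was present in 2, those of PSAD-1 and FNR1, against 12.3%. The phosphate starvation motif P1BS, GNATATNC, was present in 0 of the 9, against 5.46%. The windows of PSAD-2, PSAE-1, PSAE-2, FD1 and FNR1 overlapped a neighbouring annotated gene, so 2 of the 3 windows with a match, those of PSAE-2 and FNR1, held part of another gene. None of these letters occurred in the window of FED A.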

How the data were processed

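Polyadenylated RNA from shoots was sequenced from 27 samples, and the authors mapped the reads to the TAIR10 genome using HISAT2. The table the authors deposited holds TPM per gene. How TPM were computed, the strandedness and the versions are not given in the sources used here. In place of the study's test on counts, which TPM do not allow, values were tested with limma 3.58.1 (R 4.3.3) as log2(TPM + 0.5), for genes averaging at least 1 TPM, in 1 fit of all 9 groups with a trended prior. Fold changes are on that scale, which understates low genes. Steps in the TPM values imply 25.1 to 55.6 megareads counted per sample (median 43.3), with 24560 of 24561 genes whole within 0.02 reads. The scarcest member, FD3, had 623 to 1413 such inferred reads, and the other 8 at least 4022.

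Named genes were the 9 members, up to 3 called genes with the largest change per list and comparison, and the 3 nearest by Pearson r. The members and lists were chosen with earlier results of these data known. Sequences came from RefSeq (TAIR10.1, Biopython 1.88). Alternatives were median-of-ratios scaling, other pseudocounts, no filter, nuclear genes only, a 2-fold minimum, separate fits, a replicate block and leaving out samples. Further alternatives were a minimum mean of 5 TPM, a prior without trend and a robust prior. Same-numbered samples correlated over 0.1 in all 3 pairs of 1 comparison, −Fe+P with +Fe+P at 52 h (0.131, 0.272 and 0.285), where the block changed the FNR2 call. In no other comparison between media were all 3 over 0.1.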

Additional observations from a re-analysis of the deposited data

Results flagged for a closer look

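For 6 of the 9 genes the response to a deficient medium differed between 76 h and 39 h by the interaction test in limma, and these are the results marked for a closer look. The −Fe−P interaction was −0.57 for PSAE-1, −0.51 for PSAE-2, −0.48 for FD3 and 0.43 for FED A on the log2 scale. On −Fe+P it was −0.91 for PSAE-1, −0.73 for PSAE-2, −0.71 for PSAD-1 and −0.97 for PSAD-2. Of all genes, 13.6% were called lower and 15.1% higher in the −Fe−P interaction, and 1.4% lower in that on −Fe+P. The count of 6 pools these unlike backgrounds. A negative value means that the fold change against +Fe+P was lower at 76 h than at 39 h. Time of day may differ between these times too, and its part cannot be told apart. In the PSAD genes and PSAE-1 the +Fe+P level itself was higher at 76 h than at 39 h, by 0.41, 1.42 and 0.58 for PSAD-1, PSAD-2 and PSAE-1. The FED A value on −Fe−P went with a rise of 0.61 on −Fe−P between these times. FNR2 on −Fe−P, at 0.39, lay just outside the threshold (adjusted p = 0.0522). The calls for PSAD-2, FED A and FD3 were the least steady, with adjusted p up to 0.119, 0.0896 and 0.077 under the alternatives tried.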

How the results depend on the processing

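Of the members' log2 fold changes under the alternatives other than the 2-fold minimum, 2003 kept their side of the threshold, 85 lost a call and 36 gained one. None that was called in either fit changed direction. Values called in neither fit could change sign within the 2003. FNR1 on −Fe−P against +Fe+P at 52 h went from 0.03 to −0.10 with median-of-ratios scaling. With a 2-fold minimum, 2 members were called on −Fe−P and 2 on −Fe+P at 52 h, all lower than on +Fe+P. The shares of all genes called lower were 0.793% and 0.687%. On −Fe−P at 76 h it was 2 members, also lower, against 2.6% of all genes. Between −Fe−P and −Fe+P 0 were called at 52 and 76 h, and in both interactions 0. Over time it was 1, 0 and 1 on −Fe−P, −Fe+P and +Fe+P. The gene called was PSAD-2, higher at 76 h by 1.17 on −Fe−P and by 1.42 on +Fe+P. All-gene shares at 2-fold are not given for these comparisons, so those counts have no background beside them. A minimum can only lower a count. Fitting only the groups compared left 0 between −Fe−P and −Fe+P at 52 h. Leaving out samples gave 1 to 3 members called in that comparison, 3 to 5 at 76 h, 3 to 7 over time on −Fe+P and 2 to 6 in the −Fe−P interaction. The FED A/FD1 ratio between −Fe−P and −Fe+P ranged from 0.13 to 0.20 on leaving out samples. With median-of-ratios scaling, FED A lost its −Fe−P interaction call (adjusted p = 0.0659). PSAE-1 was called lower on −Fe−P at 39 h (0.032) and PSAE-2 at 52 h (0.0279), PSAD-1 (0.0191) was called lower on −Fe+P at 39 h and FNR1 (0.00296) at 76 h, PSAD-1 and FNR2 gained −Fe−P interaction calls (0.0232 and 0.0386), and FNR2 was called higher on −Fe−P than on −Fe+P at 76 h (0.0372). Same-numbered replicates correlated from −0.415 to 0.365, over 0.1 in 8 of 27 pairs. With a replicate block, PSAE-1 on −Fe+P at 39 h (0.0685) and PSAE-2 between −Fe−P and −Fe+P at 76 h (0.061) lost their calls, FNR2 was called higher on −Fe+P at 52 and 76 h (0.0479 and 0.0404), and the number of members called in the −Fe−P interaction was 5. FD3 had the fewest inferred reads of the 9 genes, so its relative counting error was the largest among them.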
